A study of Mus musculus with 4 samples.

Results

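The genes examined were 10 of the circadian clock: the repressors *Per1*, *Per2*, *Per3* and *Cry1*, the activator *Arntl* (also written *Bmal1*), the output factors *Dbp*, *Tef* and *Hlf*, and the REV-ERB receptors *Nr1d1* and *Nr1d2*. They were taken by name from the 23420 genes counted in mouse prefrontal cortex (PFC). All 10 were among the 16232 genes that passed the filter on low counts. RNA-seq compared 2 samples from mice given *Ash1L* shRNA AAV with 2 control samples, and asked which transcripts change in PFC when the histone methyltransferase Ash1L is reduced. All mice were of the C57BL6/J strain, and no group carried a germline deletion. The control virus is given as GFP-AAV9 in the sample labels and as a scrambled shRNA AAV in the methods, and its cargo is therefore uncertain. The hairpin was expressed from a U6 promoter, which is active in many cell types, and the RNA came from tissue punches with GFP fluorescence, not from sorted cells. According to the methods, virus was injected at 5 weeks and each sample pooled the tissue of 3 mice. The series text instead counts 3 knockdown and 2 control mice, aged 6 to 8 weeks. The methods describe mice of both sexes kept on a light-dark cycle. The hour of tissue collection is not given in the sources used here, and in the values of clock genes the hour and the group therefore cannot be told apart.

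The mammalian clock is a feedback loop of transcription. The proteins CLOCK (or NPAS2) and ARNTL bind E-box elements and switch on the *Per* and *Cry* genes, whose products return to the nucleus and block them. The same activators drive *Nr1d1* and *Nr1d2*, whose products repress *Arntl* through ROR elements (ROREs), and drive *Dbp*, *Tef* and *Hlf*, bZIP factors that bind D-box elements in output genes. In the brain of nocturnal rodents, transcripts of the first kind are high in the day to early night and *Arntl* runs in the opposite phase, with *Cry1* later than the *Per* genes. *Per1* and *Per2* also respond within a short time to neuronal activity through cAMP response elements (CREs). By this textbook order the genes were split into a day-phase group (*Per1*, *Per2*, *Per3*, *Dbp*, *Tef*, *Hlf*, *Nr1d1*, *Nr1d2*), the opposite-phase gene *Arntl*, and *Cry1*.

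The promoter elements that carry this logic are shown for the members that hold them close to a transcription start. RefSeq windows of 300 bases (250 before and 50 after the start, build GRCm38.p6) were found for 9 of the 10 genes, 12 windows in all, and *Per2* had none. Both strands were searched for the E-box CACGTG, the D-boxes TTATGTAA and TTACGTAA, the RORE (an A, any bases at the next 2 positions, a T, any base, then GGTCA) and the CRE TGACGTCA. Capitals mark the element, and no element shown shares bases with another.
Per1, chr11:69098755-69098816, plus strand, E-box: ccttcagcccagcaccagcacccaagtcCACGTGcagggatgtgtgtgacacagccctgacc
Cry1, chr10:85185081-85185142, minus strand, E-box: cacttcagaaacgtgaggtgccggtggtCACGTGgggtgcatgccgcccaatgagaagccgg
Tef, chr15:81802535-81802562, plus strand, E-box: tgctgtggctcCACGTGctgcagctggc
Tef, chr15:81811248-81811309, plus strand, E-box: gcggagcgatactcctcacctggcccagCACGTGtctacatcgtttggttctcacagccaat
Per3, chr4:151044788-151044898, minus strand, 2 D-boxes: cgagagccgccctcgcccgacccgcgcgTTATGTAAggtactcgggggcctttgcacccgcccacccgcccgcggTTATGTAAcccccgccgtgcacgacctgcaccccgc
Arntl, chr7:113207528-113207557, plus strand, RORE: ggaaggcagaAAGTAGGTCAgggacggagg
Hlf, chr11:90390908-90390937, minus strand, CRE: ggtgcgggcccTGACGTCActcttgtcagg
The E-box was in 4 of the 12 windows (*Per1*, *Cry1* and both windows of *Tef*), and in 7.15% of the 32851 promoter windows of all genes. The D-box pair of *Per3* stood at positions -205 and -158 from the start, and 1.06% of all windows held a D-box. The RORE of *Arntl* was at position 28 after the start (2.46% of all windows held one), and the CRE of *Hlf* at position -9 (1.79% of all windows). These matches describe letters in a short window and not the binding of a factor.

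Total counts per sample ran from 14251190 to 35764874. Levels are given as CPM, each count relative to the TMM-scaled size of its library, in the order control 1, control 2, *Ash1L* shRNA 1, *Ash1L* shRNA 2. DOWN and UP mark genes with an unadjusted p under 0.05 by edgeR's quasi-likelihood test and at least a 1.2-fold change, the thresholds in the study's methods, and "fell" and "rose" are used for these genes alone. With 2 samples per group, Benjamini-Hochberg adjustment over all genes left 1 gene of 16232 (0.00616%) under 0.05, and it was not a clock gene. The targeted gene *Ash1l* measured 245, 290, 216 and 138 CPM and was DOWN (log2 fold change -0.60 ± 0.22 SE, unadjusted p = 0.036, adjusted p = 0.275 by edgeR's quasi-likelihood test). Both knockdown samples were below both controls, and *Ash1L* shRNA 1 lay nearer to them. *Ash1L* shRNA 2 stood apart from the other 3 samples in 10 neuronal activity-regulated genes, whose summed levels were 625, 456, 336 and 3189 CPM. Results for the 10 clock genes that turn on this sample are therefore given with and without it. For the other genes named, this was not done gene by gene. No source says that the samples came from separate litters or days, so the p-values measure only the spread between these pools.

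Of the 10 clock genes, 5 fell (*Per3*, *Dbp*, *Tef*, *Nr1d1*, *Nr1d2*) and none rose. Among all tested genes 8.28% were DOWN and 8.61% were UP. The 5 genes are output factors, REV-ERB receptors and a *Per* gene, all of the day-phase group. By the fitted log2 fold changes they fell between 1.45-fold and 3.02-fold. *Hlf* was also lower in both knockdown samples but did not pass the threshold. *Per1*, *Per2* and *Cry1* lay on opposite sides of the control mean in the 2 knockdown samples, and *Arntl* overlapped between the groups. Both knockdown samples lay below both controls for 6 of the 10 genes, as for 26.8% of all tested genes, and above both controls for none of the 10, against 26.5% of all genes. In either direction, the groups did not overlap for 53.2% of tested genes. The median log2 fold change was -0.58 over the 10 genes and -0.0027 over all tested genes.

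**Figure D1:**
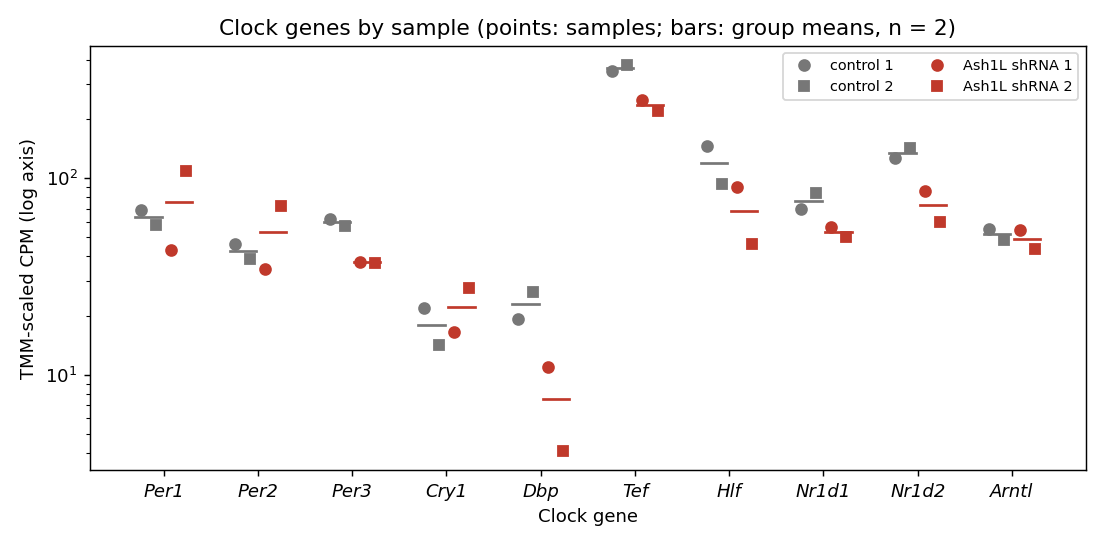
Level of each clock gene in every sample, as TMM-scaled CPM on a log axis, with bars at the group means (n = 2). The knockdown points lie below both control points for *Per3*, *Dbp*, *Tef*, *Hlf*, *Nr1d1* and *Nr1d2*, while *Per1*, *Per2* and *Cry1* have 1 knockdown point above the controls.

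*Dbp* (ENSMUSG00000059824, mm10 chr7:45705088-45710203, plus strand), a PAR bZIP activator whose transcript is among the strongest rhythms of clock output, showed the largest difference of the 10. It had 272, 930, 300 and 85 counts, or 19.3, 26.5, 10.95 and 4.10 CPM. Both knockdown samples were below both controls, and *Ash1L* shRNA 2 was lower than *Ash1L* shRNA 1. The 95% Poisson intervals, which cover counting error only, were 17.0 to 21.7 and 24.8 to 28.3 CPM in the controls and 9.75 to 12.3 and 3.28 to 5.07 CPM in the knockdown samples, and no interval overlapped another. The mean was 22.9 ± 5.12 CPM in controls and 7.53 ± 4.85 CPM after knockdown (SD, n = 2). *Dbp* fell by 1.596 ± 0.45 (SE) on the log2 scale, or 3.02-fold (unadjusted p = 0.014, adjusted p = 0.260 by edgeR's quasi-likelihood test). The log2 fold change was -1.07 without *Ash1L* shRNA 2 and -2.49 without *Ash1L* shRNA 1, both DOWN. Without control 2 it was -1.35 and the call was lost (unadjusted p = 0.072 by edgeR's quasi-likelihood test). Of the 1837 exonic bases of *Dbp*, 539 (29.3%) are also exonic in *Sphk2*, a sphingosine kinase gene on the opposite strand. *Sphk2* measured 28.1, 27.6, 25.9 and 22.6 CPM, a log2 fold change of -0.20 ± 0.14 that did not pass the threshold. The strand setting of the counting is not stated, so how reads from the shared bases were assigned is not known.

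*Tef* (ENSMUSG00000022389, chr15:81802421-81826863, plus strand), a second PAR bZIP factor, was the most abundant of the 10 genes per length, at 77.0 ± 3.75 CPM per kilobase of exon in controls (SD, n = 2). Its levels were 350, 375, 249 and 220 CPM. The samples within each group lay close together and the groups were well separated. *Tef* fell by 0.63 ± 0.12 on the log2 scale, or 1.55-fold (unadjusted p = 0.0017, adjusted p = 0.244 by edgeR's quasi-likelihood test), and it was DOWN with any single sample left out. An antisense gene, *Gm17597*, shares 193 of its exonic bases (4.10%) and was not analysed here.

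*Hlf* (ENSMUSG00000003949, chr11:90336536-90390895, minus strand), the remaining PAR bZIP factor, measured 145, 93.5, 89.9 and 46.0 CPM. Both knockdown samples were below both controls, but control 2 and *Ash1L* shRNA 1 were almost level and both groups were spread. The log2 fold change was -0.81 ± 0.37 (unadjusted p = 0.077, adjusted p = 0.335 by edgeR's quasi-likelihood test), short of the threshold. It passed without control 2 (-1.09) and without *Ash1L* shRNA 1 (-1.37), and did not pass without *Ash1L* shRNA 2 (-0.40) or control 1 (-0.45). Between the 2 knockdown samples *Hlf* differed by -0.97 on the log2 scale (shRNA 2 minus shRNA 1), a gap at least matched in size by 8.24% of all tested genes.

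The REV-ERB receptors, which bind ROREs and repress *Arntl*, both fell. *Nr1d2* (REV-ERBβ, ENSMUSG00000021775, chr14:18204054-18239127, minus strand) measured 127, 142, 85.7 and 60.0 CPM. The controls were close to each other, both knockdown samples were lower, and *Ash1L* shRNA 2 was the lowest. *Nr1d2* fell by 0.88 ± 0.18 on the log2 scale, or 1.84-fold (unadjusted p = 0.0027, adjusted p = 0.250 by edgeR's quasi-likelihood test). It was DOWN in each of the 4 fits that left out a sample.

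*Nr1d1* (REV-ERBα, ENSMUSG00000020889, chr11:98767932-98775333, minus strand) measured 69.7, 84.1, 56.2 and 50.3 CPM. The groups did not overlap, with a smaller distance between them than for *Nr1d2*. *Nr1d1* fell by 0.53 ± 0.14 on the log2 scale, or 1.45-fold (unadjusted p = 0.0074, adjusted p = 0.253 by edgeR's quasi-likelihood test). Without control 2 the log2 fold change was -0.39 and the call was lost (unadjusted p = 0.079 by edgeR's quasi-likelihood test). *Nr1d1* shares 263 exonic bases (9.67% of its own) with *Thra*, the thyroid hormone receptor α gene on the opposite strand. *Thra* measured 376, 381, 340 and 269 CPM, lower in both knockdown samples without passing the threshold (log2 fold change -0.31 ± 0.14, unadjusted p = 0.067 and adjusted p = 0.322 by edgeR's quasi-likelihood test). How far reads of *Thra* enter the value of *Nr1d1* was not tested.

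The 3 *Per* genes, whose proteins close the loop by repressing CLOCK and ARNTL, did not move together. *Per3* (ENSMUSG00000028957, chr4:151003652-151044665, minus strand), with the D-box pair shown above, measured 62.0, 57.3, 37.5 and 37.2 CPM. Its 2 knockdown samples were level with each other and both lay well below the controls. Of all tested genes, 97.5% had a gap between the knockdown samples at least as large as that of *Per3*. *Per3* fell by 0.67 ± 0.12 on the log2 scale, or 1.595-fold (unadjusted p = 0.0010, adjusted p = 0.240 by edgeR's quasi-likelihood test), and it was DOWN with any single sample left out. It lies within the span of *Camta1*, a calmodulin-binding transcription factor gene on the same strand, and shares no exonic base with it.

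*Per1* (ENSMUSG00000020893, chr11:69095217-69109960, plus strand) measured 68.6, 57.6, 42.9 and 108 CPM. *Ash1L* shRNA 1 was below both controls and *Ash1L* shRNA 2 above both, so that the knockdown mean of 75.5 ± 46.2 CPM (SD, n = 2) describes neither sample. The log2 fold change over both was 0.26 ± 0.44 (unadjusted p = 0.585, adjusted p = 0.792 by edgeR's quasi-likelihood test). Without *Ash1L* shRNA 2, *Per1* was DOWN (-0.55 ± 0.16), and without *Ash1L* shRNA 1 it was UP (0.78 ± 0.14). The knockdown samples differed by 1.33 on the log2 scale, a gap matched or passed by 4.10% of tested genes.

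*Per2* (ENSMUSG00000055866, chr1:91415982-91459324, minus strand) had the same order of samples, at 46.3, 38.7, 34.4 and 71.8 CPM. *Ash1L* shRNA 1 was again the lowest and *Ash1L* shRNA 2 the highest of the 4. The log2 fold change was 0.32 ± 0.34 (unadjusted p = 0.388, adjusted p = 0.657 by edgeR's quasi-likelihood test). It was -0.30 without *Ash1L* shRNA 2, not called, and 0.76 without *Ash1L* shRNA 1, UP. The gap between the knockdown samples was 1.06 on the log2 scale, matched or passed by 6.66% of tested genes.

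*Cry1* (ENSMUSG00000020038, chr10:85131700-85185064, minus strand), the cryptochrome repressor that peaks after the *Per* genes, measured 21.8, 14.2, 16.6 and 27.6 CPM. *Ash1L* shRNA 1 lay between the controls and *Ash1L* shRNA 2 above them. The log2 fold change was 0.30 ± 0.31 (unadjusted p = 0.366, adjusted p = 0.640 by edgeR's quasi-likelihood test). It was UP without *Ash1L* shRNA 1 (0.64 ± 0.25) and close to 0 without *Ash1L* shRNA 2 (-0.09 ± 0.26). *Cry1* was the least abundant of the 10 genes per length, at 5.95 ± 1.78 CPM per kilobase of exon in controls (SD, n = 2).

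*Arntl* (ENSMUSG00000055116, chr7:113207465-113314126, plus strand), the obligate partner of CLOCK and the gene in opposite phase to the day-phase group, measured 55.1, 48.6, 54.6 and 43.7 CPM. *Ash1L* shRNA 1 lay between the controls and *Ash1L* shRNA 2 just below them. The log2 fold change was -0.07 ± 0.15 (unadjusted p = 0.642, adjusted p = 0.827 by edgeR's quasi-likelihood test), and its sign turned without *Ash1L* shRNA 2 (0.08) and without control 1 (0.03). The difference between the groups was smaller than the spread within either group. An antisense gene, *Gm45355*, shares 33 exonic bases (1.07%) with *Arntl* and was not analysed here.

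**Figure D2:**
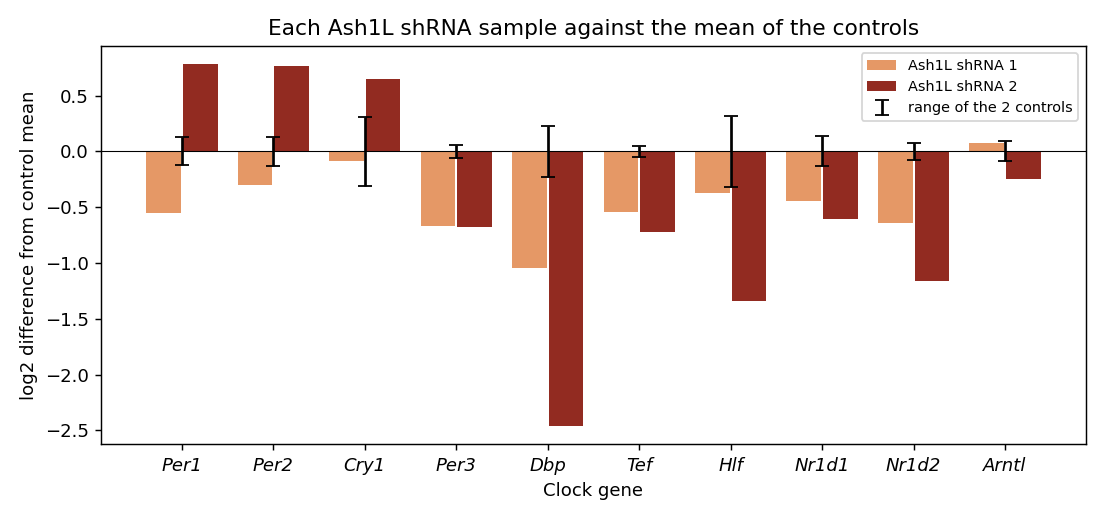
Log2 difference of each *Ash1L* shRNA sample from the control mean for the 10 clock genes, with black bars for the range of the 2 controls. *Ash1L* shRNA 1 is below the controls for all 8 day-phase genes, and *Ash1L* shRNA 2 is above them for *Per1*, *Per2* and *Cry1* and below them for the other genes.

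By phase group, the 8 day-phase genes had log2 fold changes with a median of -0.65, and 5 were DOWN and 6 lower in both knockdown samples. *Ash1L* shRNA 1 was below both controls for all 8, which held for 6086 of the 16232 tested genes. Its median log2 difference from the control mean over these 8 genes was -0.55, from -0.30 in *Per2* to -1.05 in *Dbp*. *Ash1L* shRNA 2 was below both controls for 6 of the 8 (6774 of all tested genes) and above both for *Per1* and *Per2*. Its median difference was -0.70, from -2.46 in *Dbp* to 0.78 in *Per1*. The knockdown samples thus shared the direction of the output factors, the REV-ERB receptors and *Per3*, and parted in *Per1* and *Per2*. Without *Ash1L* shRNA 2, 6 of the 10 genes were DOWN, with *Per1* added to the 5, against 4.9% of all tested genes, and none was UP, against 6.3%. Without *Ash1L* shRNA 1, 6 were DOWN, with *Hlf* added, and 3 (*Per1*, *Per2*, *Cry1*) were UP, against 16.5% DOWN and 14.2% UP among all genes. Without control 1, 5 were DOWN (3.92% of all genes) and none UP (5.1%), and without control 2, 4 were DOWN (1.71%) and none UP (2.68%). The genes behind these counts were not always the same. Without control 2, *Dbp* (-1.35) and *Nr1d1* (-0.39) lost the call and *Hlf* (-1.09) gained it. In a fit with a sample left out, the sample left alone in its group is assumed to vary like the other group.

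Per length, the control levels of the 10 genes ran from *Cry1* at 5.95 and *Per2* at 7.28 ± 0.92 CPM per kilobase (SD, n = 2), through *Per3* at 9.94 ± 0.55, *Per1* at 11.2 ± 1.38, *Dbp* at 12.5 ± 2.79 and *Arntl* at 16.8 ± 1.49, to *Hlf* at 21.2 ± 6.49, *Nr1d1* at 28.3 ± 3.75, *Nr1d2* at 28.8 ± 2.19 and *Tef* at 77.0. *Tef* stood clear of the rest. Neighbours in this order mostly lay within their spread, among them *Cry1* and *Per2*, *Per1* and *Dbp*, and the REV-ERB receptors. In *Ash1L* shRNA 2 much of the order below *Tef* differed. *Dbp* was the lowest at 2.23 CPM per kilobase, and *Per1* at 19.2 stood above *Nr1d1* at 18.5. *Per2* at 12.3 and *Cry1* at 9.12 stood above *Hlf* at 8.16.

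Ratios of counts within a sample do not depend on the scaling between samples, and 3 were formed with *Arntl* as the denominator. The log2 ratio of *Dbp* to *Arntl* was -1.52 and -0.87 in controls and -2.32 and -3.41 after knockdown. Both knockdown values were below both controls, by 1.67 between the group means, which gives an exact two-sided permutation p of 0.333, the smallest that 2 against 2 samples allow. The log2 ratio of *Nr1d1* to *Arntl* was 0.34 and 0.79 in controls and 0.04 and 0.20 after knockdown, also lower in both knockdown samples (difference of means -0.44, exact permutation p = 0.333). The log2 ratio of *Per2* to *Arntl* was -0.25 and -0.33 in controls and -0.67 and 0.72 after knockdown, on either side of the controls (difference of means 0.31, exact permutation p = 1.0). Benjamini-Hochberg adjustment over the 3 ratios gives 0.5, 0.5 and 1.0.

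**Figure D3:**
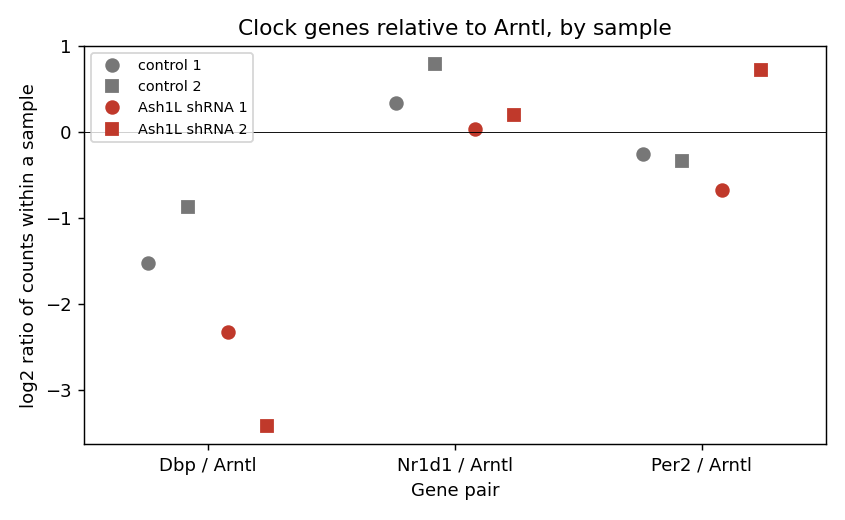
Log2 ratio of the counts of *Dbp*, *Nr1d1* and *Per2* to those of *Arntl* within each sample. The knockdown samples are the lowest points for *Dbp* and *Nr1d1*, from -3.41 to -2.32 and from 0.04 to 0.20, and they bracket the controls for *Per2*.

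Under the quasi-likelihood test none of the 10 genes reached an adjusted p of 0.05 (0.240 to 0.827), while 5 had an unadjusted p under 0.05. Other count models on the same table placed 4 of the 10 under an adjusted p of 0.05. With DESeq2 these were *Nr1d2* (adjusted p = 0.0037), *Tef* (0.0047), *Per3* (0.0090) and *Dbp* (0.0092), where 0.983% of all tested genes were lower at that threshold. With edgeR's likelihood ratio test the same 4 passed, at adjusted p of 0.0059 for *Nr1d2*, 0.0073 for *Per3*, 0.015 for *Tef* and 0.036 for *Dbp*, and 0.973% of all genes were lower. No member was higher at that threshold with DESeq2 (1.53% of all genes) or the likelihood ratio test (1.98%), and none was UP in either.

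The other 24 genes listed for the clock, all of them tested, were more mixed: 6 were DOWN and 4 were UP (8.28% and 8.61% of all tested genes), and the median of their log2 fold changes was -0.07. All 4 further repressors were lower in both knockdown samples (26.8% of all tested genes), and 3 of them fell. *Cry2*, the second cryptochrome, measured 123, 125, 93.5 and 54.5 CPM and fell by 0.74 ± 0.25 on the log2 scale. *Ciart*, a repressor of CLOCK and ARNTL that the files list as *Gm129*, measured 11.3, 15.9, 6.28 and 5.89 CPM. Its knockdown samples were level and below the controls, and it fell by 1.17 ± 0.23 on the log2 scale, the largest fall of the 24 (adjusted p = 0.250 by edgeR's quasi-likelihood test). *Bhlhe40*, which competes at E-boxes, fell by 0.38 ± 0.13, and its relative *Bhlhe41* had a log2 fold change of -0.19 ± 0.15.

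Among the activators, *Clock* rose by 0.48 ± 0.16 on the log2 scale (197, 161, 220 and 279 CPM). *Npas2*, which can take the place of CLOCK, fell by 0.57 ± 0.16 (44.98, 38.8, 31.3 and 25.04 CPM). The groups did not overlap for either gene, and the partners of *Arntl* thus moved in opposite directions. *Rora*, an activator at ROREs, fell by 0.56 ± 0.18. *Nfil3*, a bZIP repressor that binds the same D-boxes as DBP, TEF and HLF, measured 12.8, 10.2, 17.2 and 34.8 CPM. It was higher in both knockdown samples, most of all in *Ash1L* shRNA 2, and rose by 1.19 ± 0.35 (adjusted p = 0.260 by edgeR's quasi-likelihood test). A list of 9 genes held mostly kinases and ubiquitin ligases that modify PER and CRY proteins. In it *Csnk1a1* (0.49 ± 0.16) and *Btrc* (0.30 ± 0.11) rose and *Fbxl21* (-0.69 ± 0.28) fell. The casein kinases *Csnk1d* and *Csnk1e* had log2 fold changes of 0.01 ± 0.11 and -0.06 ± 0.13. The 4 further output genes did not pass (adjusted p from 0.401 to 0.953 by edgeR's quasi-likelihood test), with *Nampt* at 0.24 ± 0.13 and *Por* at 0.18 ± 0.13.

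**Figure D4:**
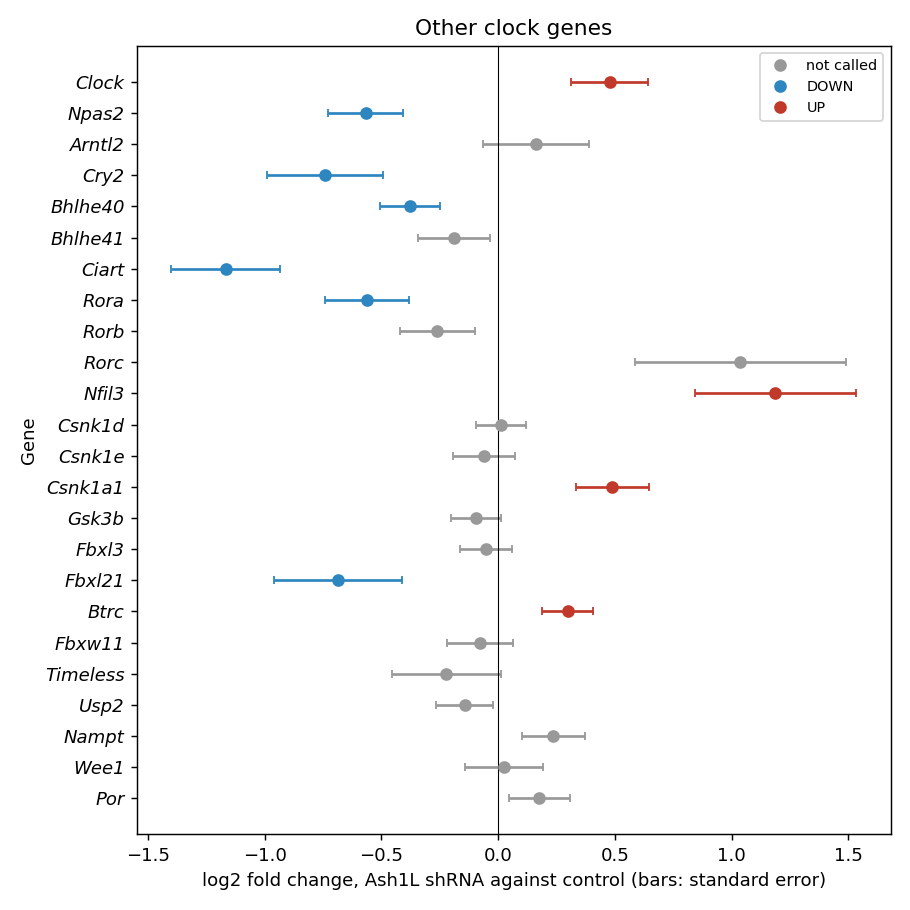
Log2 fold change (*Ash1L* shRNA against control) with its standard error for the other 24 clock genes, coloured by call. The 6 DOWN genes are *Ciart*, *Cry2*, *Fbxl21*, *Npas2*, *Rora* and *Bhlhe40*, and the 4 UP genes are *Nfil3*, *Csnk1a1*, *Clock* and *Btrc*.

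DBP, TEF and HLF are known to drive *Pdxk*, the kinase that makes the active form of vitamin B6. *Pdxk* measured 124, 120, 96.4 and 86.1 CPM, with both knockdown samples below both controls. It fell by 0.42 ± 0.11 on the log2 scale (unadjusted p = 0.0097, adjusted p = 0.255 by edgeR's quasi-likelihood test). *Pdxp*, the phosphatase of the same vitamer cycle, fell by 0.33 ± 0.12. Both were lower in both knockdown samples, as were 26.8% of all tested genes. *Ash1L* shRNA 2 was the lowest of the 4 samples for each of them, as it was for *Dbp*, *Tef* and *Hlf*. It was also the lowest for genes outside this group, among them *Thra* and *Ash1l*. The part of DBP, TEF and HLF in the values of *Pdxk* and *Pdxp* was not tested.

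Activity-regulated transcripts were high in *Ash1L* shRNA 2, as were *Per1* and *Per2*. All 10 listed (*Fos*, *Fosb*, *Junb*, *Egr1*, *Egr2*, *Nr4a1*, *Arc*, *Npas4*, *Ier2*, *Dusp1*) were above both controls in *Ash1L* shRNA 2. Of the 16232 tested genes, 6772 were above both controls in that sample. In *Ash1L* shRNA 1, 6 of the 10 were below both controls and 1 was above both. Among all tested genes, 6086 and 5944 were so placed. *Fos* measured 39.3, 27.5, 27.9 and 630 CPM, and *Npas4*, an activity-dependent neuronal factor, 26.1, 13.3, 18.4 and 529 CPM. Their median log2 fold change was 1.65, and none passed the threshold (lowest adjusted p = 0.379 by edgeR's quasi-likelihood test). The part of neuronal activity in the *Per1*, *Per2* and *Cry1* values of *Ash1L* shRNA 2 was not tested. Nor was its part in the falls of *Per3*, *Dbp*, *Tef*, *Nr1d1* and *Nr1d2*.

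**Figure D5:**
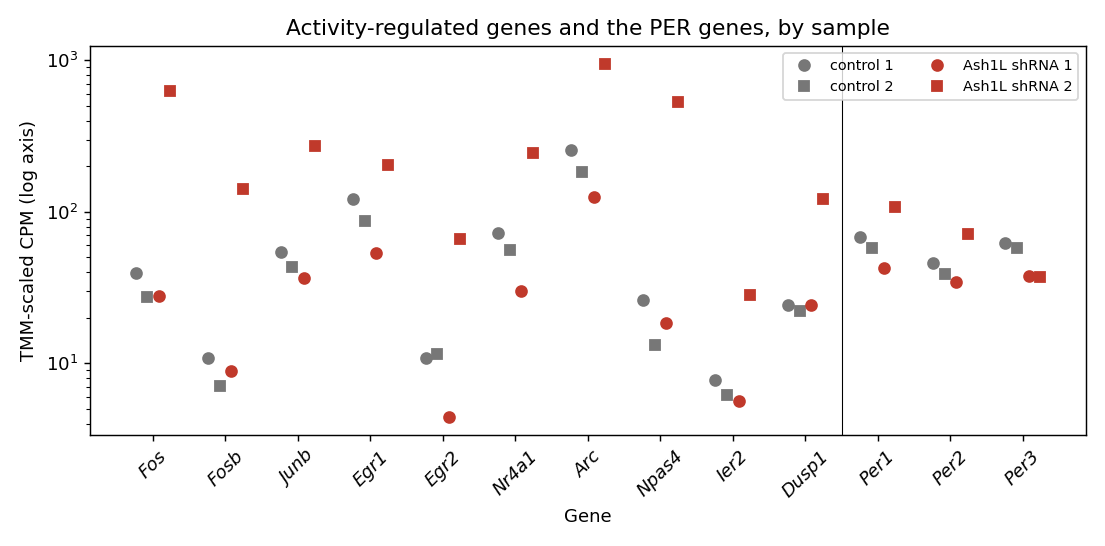
Level of 10 activity-regulated genes and the 3 *Per* genes in each sample, as TMM-scaled CPM on a log axis. *Ash1L* shRNA 2 is the highest point for the 10 activity-regulated genes and for *Per1* and *Per2*, whereas for *Per3* it lies level with *Ash1L* shRNA 1.

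Glucocorticoid-responsive genes were considered because corticosterone also acts on *Per1*. Of 10 listed, *Mt2* (-1.16 ± 0.14) and *Tsc22d3* (-0.33 ± 0.12) fell, and *Cdkn1a* (2.27 ± 0.50) and *Errfi1* (1.39 ± 0.49) rose. Among all tested genes 8.28% were DOWN and 8.61% UP. The median over the list was 0.05 on the log2 scale. Both knockdown samples were above both controls for 4 of the 10 and below both for 3 (26.5% and 26.8% of all genes). *Fkbp5* (23.1, 24.3, 26.6 and 44.3 CPM) and *Sgk1* (66.1, 75.6, 77.9 and 143 CPM) were among the 4 and highest in *Ash1L* shRNA 2. Neither passed the threshold. The part of glucocorticoids in the *Per1* values was not tested. The cold-inducible genes *Cirbp* and *Rbm3*, which follow daily body temperature, had log2 fold changes of -0.18 ± 0.12 and 0.12 ± 0.15 and did not pass.

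Clock genes are expressed in neurons and glia alike, so marker lists for the cell types of a punch were read beside them. Among all tested genes, 8.28% were DOWN and 26.8% were lower in both knockdown samples. Excitatory neuron markers were lower in both knockdown samples for 5 of 5 genes (3 DOWN, median log2 fold change -0.42, summed level 2391 and 2851 CPM in controls against 2201 and 1826 CPM). Astrocyte markers were DOWN for 4 of 6 (median -0.53, summed 4646 and 4973 against 3891 and 3023 CPM), interneuron markers for 2 of 6 (median -0.31, 672 and 615 against 560 and 584 CPM) and pan-neuronal markers for 1 of 5 (median -0.24, 6496 and 6665 against 5816 and 4808 CPM). The medians of these 4 lists were thus negative, but not every marker was lower. *Map2* (0.03), *Gad2* (0.28), *Slc32a1* (0.11), *Aqp4* (0.11) and *Gfap* (0.0007) had positive log2 fold changes and overlapped between the groups. Of the 5 clock genes that fell, *Dbp* had a log2 fold change (-1.60) beyond that of every marker in these 4 lists. The lowest markers were *Gja1* (-0.99), *Slc1a3* (-0.94) and *Pvalb* (-0.90). *Nr1d2* (-0.88), *Per3*, *Tef* and *Nr1d1* lay within their range. In bulk tissue, fewer cells of a type and less RNA per cell cannot be told apart, and the part of cell composition in the clock values was not tested.

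For oligodendrocyte markers the median log2 fold change was -0.26 (summed 2285 and 2537 against 2458 and 2224 CPM) and endothelial markers 0.10 (163 and 137 against 163 and 156 CPM). Microglia markers were lower in *Ash1L* shRNA 2 alone (394 and 417 against 441 and 204 CPM). The oligodendrocyte precursor markers summed to 115 and 113 CPM in controls and 132 and 146 CPM after knockdown, and 1 of the 2 (*Pdgfra*) rose. Of the blood immune cell markers, *Ccr2* (5.74, 9.98, 3.18 and 1.79 CPM) and *Cd3e* (0.50, 1.34, 0.22 and 0.39 CPM) fell. Choroid plexus and striatal markers were low throughout, at 6.72 to 14.3 CPM in sum, and 1 of 4 (*Drd2*) rose. The defining markers of cortical neurons were present in every sample, with *Slc17a7* between 754 and 1069 CPM and *Snap25* between 2002 and 2881 CPM.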

How the data were processed

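Per the labels and methods, stranded total RNA libraries depleted of ribosomal RNA were sequenced from 2 control and 2 *Ash1L* shRNA samples. The authors aligned reads to mm10 with STAR and deposited raw featureCounts counts per gene symbol, without normalization. The labels also mention Cutadapt and TopHat2, and the strand setting of counting is not stated.

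Counts were filtered with filterByExpr, scaled by TMM and tested with the quasi-likelihood F test (robust) of edgeR 4.0.16 in R 4.3.3, comparing knockdown with control, and p-values were adjusted by Benjamini-Hochberg over 16232 genes. Standard errors are the size of the log2 fold change over the root of F. Gene positions and exonic lengths came from GENCODE vM21. The test was checked on simulated counts. Alternatives were DESeq2 1.42.0, the likelihood ratio test, other scalings and filters, GC and length offsets, a 1.5-fold limit, a replicate block and each sample left out.

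The clock genes, the other lists and the phase groups were chosen with earlier results of these data known. All 10 members were named. From other lists, DOWN and UP genes were named (at most 4, by p) or, with none, the 2 with the highest counts, and any gene sharing exons with a member. *Bhlhe41*, *Csnk1d*, *Csnk1e*, *Camta1*, *Fos*, *Npas4*, *Fkbp5*, *Sgk1*, *Map2*, *Gad2*, *Slc32a1*, *Aqp4*, *Gfap*, *Slc17a7* and *Snap25* were named after their values were seen. Some listed genes are not reported here.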

Additional observations from a re-analysis of the deposited data

How the results depend on the processing

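The number of clock genes DOWN was 5, and between 4 and 6 under every alternative, though not always the same genes. Of 150 values of the 10 genes under alternatives, 135 kept direction and call, 2 lost the call, 8 gained it and 5 changed sign, all 5 with a sample left out. With a sample left out, log2 fold changes ranged from -0.55 to 0.78 for *Per1*, -0.30 to 0.76 for *Per2*, -0.094 to 0.65 for *Cry1* and -0.24 to 0.082 for *Arntl*. The sign changed without *Ash1L* shRNA 2 for all 4 genes, and without control 1 for *Arntl* (0.031). The log2 ratio of *Per2* to *Arntl*, 0.31 with all samples, ranged from -0.38 (without *Ash1L* shRNA 2) to 1.01 with a sample left out. The number of members UP ranged from 0 to 3, with 3 without *Ash1L* shRNA 1. The other clock genes DOWN (6) ranged from 2 (without either control) to 5 with a sample left out, and 3 passed a 1.5-fold limit. Those UP (4) ranged from 0 (without control 2) to 6, with 2 without control 1 or *Ash1L* shRNA 2, and 1 passed a 1.5-fold limit. *Hlf* passed with DESeq2, with the likelihood ratio test and with the replicate block.

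The groups share replicate numbers, but no source says that equal numbers were processed together, and the deviations of same-numbered samples correlated at -0.11. With the replicate block, 6 members were DOWN and 0 UP (*Hlf* added, unadjusted p = 0.0020 by edgeR's quasi-likelihood test), and of the other clock genes 5 were DOWN and 2 UP. With the numbers crossed, chosen after seeing the data, 5 members were DOWN and 0 UP, and 5 and 4 of the others. The cause of these changes was not tested. At 2 samples per group, the number of samples limits the precision more than the depth.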
